A study of Mus musculus with 3 samples.

Results

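Dense clusters of predicted m6A sites were examined in RAW264.7, an established mouse macrophage cell line. A cluster was defined as a run of listed sites on the same chromosome and strand in which neighbours lay at most 50 genomic nt apart and which held at least 5 sites. The members were therefore chosen by the measured positions of the sites, and their number, spacing and density are given as a description, with no test. The deposited list held 19301 sites in 4947 genes, and the rule found 37 runs with 199 sites, or 1.03% of the list (95% Wilson interval 0.898 to 1.18%, which covers counting error only).

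The profile was made by miCLIP2, in which UV light links an m6A antibody to poly(A)+ RNA and truncated cDNAs mark the position of the contact. The cells were untreated, with 3 biological replicates that the authors combined into 1 list, so no spread between replicates can be given. The series text calls the line human, while the organism label says mouse, and all 19301 sites lay at A in the mouse genome GRCm38. For every site the list gives a score between 0.5 and 1 from the machine learning model m6Aboost, which rates the call and is not a methylation level. Since no read counts accompany the sites, the depth behind each of them is unknown.

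As background, m6A is written on mRNA by a methyltransferase complex with METTL3 as its catalytic subunit. The complex acts on A in the DRACH motif, where D is A, G or T, R is A or G and H is A, C or T. Methylation is found mostly in long exons and around stop codons, and exon junction complexes are known to keep the writer away from the RNA near splice junctions. Proteins of the YTH family read the mark and influence the stability and translation of the mRNA.

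The 37 runs lay in 37 different genes, all of them protein-coding. A run was held by 0.748% of the genes with a site, and by 2.54% of the 1457 genes with 5 or more sites, both fixed by the rule. Most runs were small, with 26 runs of 5 sites, 8 of 6 sites and 3 of 7 sites. Their spans, from the first to the last site, ran from 45 nt in Pcyt2 to 171 nt in Incenp, with a median of 105 nt (95% interval 90 to 121 nt). The median distance between neighbours was 25 nt (20 to 28 nt), close to the 23 nt found in runs of 2 to 4 sites.

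Just outside the rule stood 138 runs of 4 sites, in 138 genes, with a median span of 80 nt against 100.5 nt in the 26 runs of 5 sites. The median of the run medians of the score was 0.767 in runs of 4 sites and 0.757 in runs of 5 sites. In 19 of these 138 runs another site followed at a distance of 51 to 60 nt, while 11 of the 37 runs held a gap of 46 to 50 nt. The run of Crkl was closed by a site 51 nt downstream, and that of Bhlhe40 by a site 54 nt upstream.

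To place the runs on transcripts, each gene was represented by its longest transcript passing the study's support filter. On these chosen transcripts, 51.3% of run sites (44.4 to 58.1%) were 3′ UTR sites and 27.1% (21.4 to 33.7%) were CDS sites, against 39.5% (38.8 to 40.2%) and 40.1% (39.4 to 40.8%) of the 19102 sites outside runs. When sites within 5 nt were collapsed before runs were formed, however, the intervals of both shares in runs included the shares outside runs given here. No run site lay in a 5′ UTR. The chosen transcript was missing, non-coding, spliced across the run or marked for nonsense-mediated decay for 9 runs. A second reading, chosen after seeing the data, therefore took for such sites the longest protein-coding transcript that held them in an exon. It placed 69.8% of run sites (63.1 to 75.8%) in 3′ UTRs and 30.2% (24.2 to 36.9%) in coding sequence. For sites outside runs it gave 45.5% (44.8 to 46.2%) and 50.8% (50.1 to 51.5%), respectively. Sites in runs of 4 had 48.9% (44.8 to 53.1%) and 49.1% (44.9 to 53.3%) on the second reading. On chosen transcripts they had 44.4% (40.3 to 48.6%) and 35.3% (31.5 to 39.4%). Because m6Aboost takes the transcript region as an input and neighbouring sites share a transcript, these shares were not tested. All exons and distances given for single runs below follow the second reading.

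Every run lay within a single exon. Of the 37 runs, 31 lay in the last exon, among them those of the single-exon genes Eid1 and Jun. The last exon held 83.4% of run sites (77.6 to 87.9%), compared with 68.6% (67.9 to 69.2%) of sites outside runs. Sites in runs of 4 were in between, with 76.8% (73.1 to 80.1%). Internal exons held the remaining 6 runs, all in the CDS, namely in Incenp, Akap8, Ehbp1l1, Golga4, Srfbp1 and Son. The host exons had a median length of 1812 nt (1266 to 2605 nt), from 481 nt in Akap8 to 7354 nt in Rsf1, and 29 of 37 were at least 1000 nt long. The exon of Rsf1 was read on a transcript that does not pass the support filter, and is 996 nt long on the chosen transcript.

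On the chosen transcripts, the 31 exons with a run had a median length of 1490 nt (1145 to 2568 nt). The 5935 exons with a site and no run were shorter, with a median of 854 nt (822 to 888 nt). A longer exon can hold more sites, though, and the 941 exons with 5 or more sites but no run had a median of 1771 nt (1685 to 1871 nt), within the interval of the exons with a run. Spliced edges were at some distance from the runs. The first site of a run lay at least 63 nt downstream of the preceding junction, the smallest distance being that of Zfp513, with a median of 329.5 nt over 34 runs. For the 6 internal exons, the last site lay at least 242 nt upstream of the next junction, with Incenp the closest.

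Among the transcription factors, Jun, a subunit of AP-1 and an immediate early gene, held 5 sites within 60 nt at chr4:95050205-95050264 on the minus strand. Its run began 5 nt after the first base of the stop codon and ended 64 nt after it. All 5 sites were at DRACH, with scores from 0.686 to 0.881. Jun had 11 further sites in its only exon of 3189 nt, and the nearest lay 58 nt upstream and 66 nt downstream, so that the run was part of a longer stretch of sites. GC bases made up 41.7% of the run of Jun, the lowest share of all runs.

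Bhlhe40, a basic helix-loop-helix repressor, carried its 5 sites in the CDS of the last exon (exon 5, 2447 nt) at chr6:108664749-108664894, plus strand. They spread over 146 nt, and the score fell with each site from 0.941 at the first, AAACT, to 0.524 at the last, GGACG. Zfp513, which encodes a zinc finger protein, was the only gene whose sites all lay in the run. Its 5 sites at chr5:31199981-31200084, minus strand, were in the CDS of exon 4 of 4, between 761 and 658 nt upstream of the stop codon. The rest of that exon held 24 DRACH motifs and no site.

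The other regulators of transcription and chromatin had runs in both regions. Eid1, an inhibitor of the EP300 acetyltransferase, held 7 sites over 170 nt of its 3′ UTR at chr2:125673768-125673937, plus strand. All 7 were at DRACH, and the span held no DRACH motif that was not listed. Cdk9, the kinase of the elongation factor P-TEFb, had 6 sites over 112 nt of the 3′ UTR (chr2:32707684-32707795, minus), of which 4 were at DRACH. In Phf20, a chromatin reader of an acetyltransferase complex, 5 sites covered 86 nt (chr2:156307526-156307611, plus) that began 92 nt after the first base of the stop codon. The sites of Rsf1, a histone-binding subunit of a chromatin remodeller, lay in the CDS (chr7:97685761-97685886, plus), the last of them 99 nt upstream of the stop codon. They filled 126 nt of the exon of 7354 nt, and none of the 155 DRACH motifs in the rest of that exon was listed. That exon belongs to a transcript that does not pass the support filter, and on the chosen transcript it is 996 nt long. Whether the longer exon is expressed in these cells was not tested. Srfbp1, which encodes a protein that binds serum response factor, held 5 DRACH sites over 117 nt of its internal exon 6 (721 nt) on chromosome 18, with scores from 0.646 to 0.809.

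Runs were also found in genes of macrophage signalling. Tlr4, the receptor for lipopolysaccharide, had 5 sites at chr4:66841474-66841602, plus strand. On its chosen transcript they lay in an intron, while on the second reading the run extended from 3 nt before to 125 nt after the first base of the stop codon, in exon 3. Its median score of 0.542 was the lowest of the 37 runs, and 3 of its 5 sites scored below 0.55. Thus, much of this run sat near the score of 0.5 at which the deposited list begins.

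Il10ra encodes the ligand-binding chain of the receptor for the anti-inflammatory cytokine IL-10. Its run, chr9:45255839-45255957 on the minus strand, lay in the CDS of exon 7 of 7 and had the second lowest median score, 0.592. The 13 other sites of the gene had a median of 0.791, and thus scored higher than the run. Cd300lb, an activating receptor of myeloid cells, carried the most distal run (chr11:114923262-114923365, minus), with sites between 1530 and 1633 nt after the first base of the stop codon. Its 12 sites outside the run had a median score of 0.855, against 0.644 inside.

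Further signalling genes were the adaptor Crkl, the deubiquitinase Otud7b, the pseudokinase Trib3 and the nuclear kinase anchor Akap8. Crkl held 6 sites over 90 nt of its 3′ UTR (chr16:17484018-17484107, plus), 3 of them at non-DRACH motifs, the last at GTACT. Otud7b, a regulator of NF-κB signalling, had 5 DRACH sites in the CDS, the last of them 19 nt upstream of the stop codon. Its span held 10 DRACH motifs, more than any other run, of which 5 were listed. Trib3 had 5 sites over 130 nt of the 3′ UTR (chr2:152337756-152337885, minus) with a median score of 0.694. In Akap8, 6 sites lay within 61 nt of exon 5, the shortest host exon with 481 nt, and the rest of this exon held no site.

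Further runs lay in genes for membrane proteins, organelles and their traffic. Tmem229b, which encodes a membrane protein, held 7 sites over 120 nt of its 3′ UTR at chr12:78964339-78964458, minus strand. It had the highest median score of the runs with 7 sites, 0.875, and its last site GAACT reached a score of 1. Atg13, a subunit of the complex that starts autophagy, followed with 6 sites over 102 nt (chr2:91676137-91676238, minus) and a median of 0.845. Ctsz, the lysosomal protease cathepsin Z, had 6 sites in a last exon of only 490 nt (chr2:174427704-174427817, minus), of which 4 were at DRACH. The 114 nt between them held 9 DRACH motifs, and 5 of these were not listed.

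Pcyt2, an enzyme of phosphatidylethanolamine synthesis, held the shortest run. Its 5 sites within 45 nt at chr11:120610417-120610461, minus strand, gave 11.1 sites per 100 nt, against a median of 5.26 over all runs. However, the first pair, CAATG and TGATG, were non-DRACH sites with scores of 0.519 and 0.548, and the 3 DRACH sites scored from 0.784 to 0.837. The next densest runs were those of Triap1 with 10.0 sites per 100 nt, Akap8 with 9.84, Jun with 8.33 and Ehbp1l1 with 7.94. Ehbp1l1, an adaptor of endosomal membrane traffic, had 5 DRACH sites in the CDS of exon 12, and they were all the DRACH motifs of its span.

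The Golgi was represented by several genes. Golga4, a golgin of the trans-Golgi, carried 5 DRACH sites at chr9:118555683-118555761, plus strand, 110 nt into its long internal exon 15 (4211 nt). Its 79 nt span held 5 of the 12 sites of that exon. Gosr1, a SNARE of the Golgi, had 5 sites over 97 nt (chr11:76729997-76730093, minus) that began 18 nt after the first base of the stop codon. Arfgap1, which activates the GTPase of Arf1, held 5 DRACH sites over 68 nt (chr2:180981902-180981969, plus) with scores from 0.810 to 0.910. Man2a2, a mannosidase that trims N-glycans, showed 5 DRACH sites over 122 nt (chr7:80351534-80351655, minus) with a median score of 0.846.

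Small GTPases and their regulators gave 3 further runs. Rhof, a GTPase of filopodia, had 5 DRACH sites over 84 nt (chr5:123119338-123119421, minus), from 11 to 94 nt after the first base of the stop codon. These distances follow the second reading, with an exon of 1417 nt, whereas the exon is 2261 nt long on the chosen transcript. Another gene, Gm26745, also covers the run on the same strand. Adap1, a GTPase-activating protein for Arf6, held 5 sites over 126 nt (chr5:139272616-139272741, minus) with a median of 0.822, in an exon that is non-coding in its chosen transcript and 3′ UTR on the second reading. Rinl, a regulator of Rab5 proteins, had the lowest share of DRACH sites, 2 of 5 (chr7:28798643-28798723, plus). Its 3 other sites were TGATA and a pair of GAACG 4 nt apart.

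The remaining runs of this kind also lay in 3′ UTRs. Dnajb12, a chaperone of the endoplasmic reticulum, held 5 DRACH sites over 71 nt (chr10:59897593-59897663, plus), of which the last 3 were spaced by 4 nt. A run of 5 DRACH sites at chr2:30262195-30262284, plus strand, was assigned to Gm28035, the longer of a pair of overlapping genes. The same bases form the 3′ UTR of Lrrc8a, the essential subunit of the volume-regulated anion channel, and the list cannot separate the pair.

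A last group serves the genome, RNA and ribosomes. Incenp, the scaffold of the chromosomal passenger complex in mitosis, held the longest run, with 7 sites over 171 nt of its internal exon 4 (737 nt). Its scores were the most even of the runs with 7 sites and ranged from 0.800 to 0.875. Ercc2, a helicase of the repair and transcription factor TFIIH, had 6 DRACH sites over 105 nt of its 3′ UTR (chr7:19394932-19395036, plus). Bysl, which acts in the assembly of the small ribosomal subunit, carried 6 sites across its stop codon (chr17:47601424-47601584, minus), from 29 nt before to 131 nt after its first base. In Nol9, a kinase of ribosomal RNA processing, 5 DRACH sites (chr4:152058857-152059003, plus) had a median of 0.884, the second highest, although they lay in an intron of the chosen transcript. Triap1, an inhibitor of apoptosis in mitochondria, had 5 sites within 50 nt of the 3′ UTR (chr5:115343021-115343070, plus).

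Son, a splicing cofactor of nuclear speckles, differed from all other runs in its spacing. Its 5 sites at chr16:91656546-91656666, plus strand, lay exactly 30 nt apart in the CDS of exon 3 (5970 nt), always at position 2 of the codon. The sites were GGACT except for the second, GGATT, and the median score of 0.905 was the highest of all runs. The spacing followed a tandem repeat, as the 30 nt units that start with each pentamer were identical to the next at 23 to 30 positions. The array went on beyond the run, with 15 copies of the pentamers up to position 91656966, of which 10 were listed.

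The copies of the array also show how sites with the same bases were listed differently. Copies 4, 5 and 6 had the same 21 nt around the A, the window that m6Aboost reads. The first pair of them were listed with the same score of 0.905, but copy 6 at 91656696 was not listed. Another window was shared by copies 9, 10, 12 and 13, which scored 0.671, 0.858, 0.930 and 0.916. Sequence thus did not fix the score, which also depends on the signal. The authors kept only reads that mapped uniquely, and how this acted on these near-identical units was not tested. The list does not show whether an unlisted copy was unmethylated.

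The sequences of CDS runs show this difference in spacing. They are given 5′ to 3′ on the strand of the gene, from GRCm38, with 10 nt before the first and after the last site, lower case for the context and capitals for the pentamer centred on each listed A. Shown are 6 of the runs that lie in 1 CDS exon of the chosen transcript and in no annotated UTR. They were taken by most sites and then by the shorter span, with Srfbp1 not considered. Rsf1 was not a candidate, since its run lies in a non-coding exon of its chosen transcript. The stretches are chr19:9893505-9893695 (minus strand, Incenp, exon 4), chr17:32316505-32316585 (minus, Akap8, exon 5), chr19:5716147-5716229 (minus, Ehbp1l1, exon 12), chr5:31199971-31200094 (minus, Zfp513, exon 4), chr16:91656536-91656676 (plus, Son, exon 3) and chr3:96155808-96155957 (plus, Otud7b, exon 13).
Incenp: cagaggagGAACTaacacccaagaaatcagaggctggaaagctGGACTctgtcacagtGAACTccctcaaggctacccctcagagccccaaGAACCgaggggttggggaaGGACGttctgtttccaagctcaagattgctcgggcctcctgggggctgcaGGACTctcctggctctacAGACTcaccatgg
Akap8: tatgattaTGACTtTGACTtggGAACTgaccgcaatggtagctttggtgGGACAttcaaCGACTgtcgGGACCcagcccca
Ehbp1l1: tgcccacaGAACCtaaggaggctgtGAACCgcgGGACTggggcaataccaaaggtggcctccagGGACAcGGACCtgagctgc
Zfp513: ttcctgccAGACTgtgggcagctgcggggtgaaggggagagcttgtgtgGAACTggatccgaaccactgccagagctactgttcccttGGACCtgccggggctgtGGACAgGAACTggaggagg
Son: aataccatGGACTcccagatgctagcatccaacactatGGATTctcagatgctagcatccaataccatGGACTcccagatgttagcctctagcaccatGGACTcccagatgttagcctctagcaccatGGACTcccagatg
Otud7b: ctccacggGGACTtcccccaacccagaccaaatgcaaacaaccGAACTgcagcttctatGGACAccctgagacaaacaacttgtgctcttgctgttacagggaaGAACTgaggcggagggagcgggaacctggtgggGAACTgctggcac

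In Akap8, the first pair of sites were TGACT pentamers separated by a single base, and Ehbp1l1 ended with GGACA and GGACC in the same arrangement. In Zfp513, GGACA and GAACT were likewise separated by a single base. By contrast, the sites of Incenp and Otud7b were spread out, with the closest neighbours 15 nt and 16 nt apart.

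Neighbouring nucleotides were listed together in 5 of the 162 pairs of neighbours, and all 5 were the adjacent A of GAACT. The 3′ UTR stretches of at most 30 nt that hold most sites with their whole pentamers show 4 of them, in runs with most sites among those in the 3′ UTR of the chosen transcript: Tmem229b at chr12:78964337-78964347 (minus strand), Crkl at chr16:17484016-17484034 (plus), Atg13 at chr2:91676224-91676240 (minus) and Cdk9 at chr2:32707682-32707697 (minus). Ercc2 had no such pair, and of its stretches with 2 whole pentamers the most upstream is shown, chr7:19394967-19394991 (plus). Capitals again mark the pentamers of listed sites, which merge where they overlap.
Tmem229b: GGACATGAACT
Crkl: GGATTgTGAACTggAAACA
Atg13: TGAACTtcctggAGACT
Ercc2: AGACAggagtgagacagggaAGACT
Cdk9: TGACTttctaAGAACT

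In each of these pairs the second A, at GAACT, had the higher score. In Tmem229b it scored 1 against 0.591 for the first A, in Crkl 0.943 against 0.547 and in Atg13 0.839 against 0.541. Cdk9 had 0.881 against 0.501, and Triap1 had 0.955 against 0.552. Collapsing sites within 5 nt to the highest score left 30 runs, and Crkl, Tmem229b, Atg13 and Cdk9 still qualified while Triap1 did not.

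Run sites were at DRACH in 85.4% (170 of 199, 79.9 to 89.7%), compared with 90.4% (87.7 to 92.6%) in runs of 4 sites and 92.0% (91.6 to 92.4%) outside runs. With sites within 5 nt collapsed it was 89.2% (83.4 to 93.2%), an interval that includes the share outside runs, and at a score of at least 0.7 it was 96.2%. The sites of the same genes outside their runs had 92.9% (88.2 to 95.8%). In the runs wholly in the CDS the share was 91.4% (81.4 to 96.3%, 58 sites), and in those wholly in the 3′ UTR it was 83.1% (75.7 to 88.6%, 130 sites), with overlapping intervals. All sites were at DRACH in 16 runs, for example those of Eid1, Ercc2 and Jun. Of the other 21 runs, 6 held at least 2 non-DRACH sites: Crkl, Rinl, Cdk9, Ctsz, Pcyt2 and Triap1.

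The most frequent pentamer in runs was GGACA with 33 sites, or 16.6% (12.1 to 22.4%), followed by GGACT with 27 sites, or 13.6% (9.49 to 19.0%), intervals that overlap. Outside runs GGACT was the most frequent with 3712 sites, or 19.4%, followed by GAACT with 2508 and GGACA with 2506 sites, or 13.1% each. Phf20 and Gm28035 each held 3 GGACA sites, whereas 4 of the 5 sites of Son were GGACT. Even so, the highest score of a run was most often at GGACT, in 10 runs, then at GAACT in 9 and GGACA in 8.

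Among the 29 non-DRACH sites of runs, 10, or 34.5% (19.9 to 52.7%), kept the AC core, compared with 78.5% (76.4 to 80.5%) of the 1526 non-DRACH sites outside runs. Of the sites without AC, 5 were the first A of a GAACT whose second A was also listed. GGAT was found at 8 of the 29, or 27.6% (14.7 to 45.7%), against 10.0% (8.62 to 11.6%) outside, for example in Son, Crkl, Gosr1, Triap1 and Trib3. Their median score was 0.554 (0.541 to 0.630), against 0.805 (0.779 to 0.824) for the DRACH sites of runs. Non-DRACH sites outside runs had 0.608 (0.601 to 0.617), within the former interval, and also scored below the DRACH sites outside runs, with 0.745. In 16 of the 21 runs with a non-DRACH site, such a site had the lowest score of the run.

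The spans of the runs were rich in DRACH motifs, as the rule favours. They held 218 DRACH motifs over 3934 nt, or 5.54 per 100 nt, compared with 1.93 per 100 nt in the rest of the host exons, and the span had the higher density in all 37 runs. Within the spans, 170 of 218 motifs were listed, or 78.0% (72.0 to 83.0%), against 147 of 1565, or 9.39% (8.05 to 10.9%), in the rest of the exons. The rule sets this contrast as well, since a span begins and ends at a listed site and holds at least 5. It is therefore a description and says nothing about how completely clusters are methylated. In 10 runs, among them Eid1, Son, Golga4 and Arfgap1, no DRACH motif of the span was left unlisted. The GC content was higher in the span than in the rest of the exon in 24 of 37 runs, with medians of 54.0% and 51.9%. Lower-case bases of the reference, which mark repeats and low complexity, occurred in the spans of 7 runs, with the most, 45 nt, in Cd300lb.

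With regard to the stop codon, 80 of the 199 run sites, or 40.2% (33.6 to 47.1%), lay within 200 nt of its first base. The 24 runs wholly in the 3′ UTR began at a median of 140.5 nt (74 to 309 nt) after it, from 5 nt in Jun to 1530 nt in Cd300lb. Of these, 9 had every site within the first 200 nt, for example Jun, Rhof and Gosr1. Both Bysl and Tlr4 had runs that crossed the stop codon. Of the 60 run sites in the CDS on the second reading, 31 were at position 2 of the codon, or 51.7% (39.3 to 63.8%). Outside runs it was 49.9% of 7578 sites, read on chosen transcripts with an annotated stop codon in frame with the start of the CDS.

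The score of run sites had a median of 0.781 (0.752 to 0.806), compared with 0.734 (0.730 to 0.737) outside runs and 0.749 (0.713 to 0.791) at the other sites of the same genes. Scores come from the same measurement as the positions, so these values were not tested. The run had the higher median in 21 of the 36 genes with further sites, as in Tmem229b with 0.875 against 0.615 and Nol9 with 0.884 against 0.733. In the other 15 genes the run had the lower median, as in Srfbp1 with 0.729 against 0.854 and Dnajb12 with 0.652 against 0.801. Together the 37 genes had 382 sites, of which 52.1% (47.1 to 57.1%) lay in the runs. Son with 21 sites, Il10ra with 18 and Cd300lb and Nol9 with 17 each had the most.

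Many sites in a gene did not by themselves give a run. Ahnak, a giant scaffold protein, had 67 sites and Plec, a cytolinker, had 66, the highest numbers of the list, but at most 3 and 4 of them followed each other at the required distance. Likewise, the ubiquitin ligase Rnf213 with 43 sites and the proliferation marker Mki67 with 38 reached 3, and the transcriptional repressor Spen with 37 reached 4.

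By function, runs were spread over several lists of genes, which were selected by symbol and are not complete: Rsf1, Ercc2 and Pcyt2, for example, are on none of the lists for chromatin, DNA repair or lipid handling. The list for Toll-like receptor, NF-κB, interferon and cytokine signalling had 62 genes with a site, of which Il10ra and Tlr4 held a run, or 3.23% (0.889 to 11.0%), beside 0.748% of all genes with a site. Of 38 immediate early, bZIP and Krüppel-like factors, 2 did, among them Jun, or 5.26% (1.46 to 17.3%). The list for cell cycle, mitosis and DNA repair had 80 genes with a site, of which Cdk9 and Incenp held a run, or 2.5% (0.688 to 8.66%). Cdk9 was on this list by its symbol, although it is the kinase of P-TEFb and is described above among the regulators of transcription. Only genes with 5 or more sites can hold a run, and these lists had 22, 20 and 17 of them, respectively. Among all 1457 genes with 5 or more sites, 2.54% held a run, so the shares above depend on how many such genes a list has. The shares of these lists rest on 2 genes each, and differences from the other genes were not tested.

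In 4 lists a single listed gene held a run. Zfp513 was 1 of 105 listed zinc finger genes, Phf20 was 1 of 84 listed histone modifiers, chromatin remodellers and corepressors, Otud7b was 1 of 130 ubiquitin ligases and proteases, and Son was 1 of 126 genes for RNA binding, splicing and decay. Their shares of 0.952% (0.168 to 5.20%), 1.19% (0.210 to 6.44%), 0.769% (0.136 to 4.23%) and 0.794% (0.140 to 4.36%) include the 0.748% of all genes in their intervals. No run was found in the 64 listed genes of the cytoskeleton and adhesion, in 133 listed solute carriers and genes of lipid handling, or in 67 listed kinases and phosphatases of MAPK, PI3K and mTOR signalling. The upper limits of the intervals were 5.66%, 2.81% and 5.42%.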

How the data were processed

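The submitters' processing notes name STAR 2.7.3a, SAMtools 1.9, UMI-tools 1.0.0 and bedtools 2.27.1 and the builds mm10 and GRCm38.p6. The authors kept only reads that mapped uniquely. They called peaks with PureCLIP per replicate, kept those found in at least 2 replicates, and scored those at A with m6Aboost. The deposited unit is the m6Aboost score; the authors' model reads 21 nt of sequence, the transcript region, the strength of the signal and the C-to-T changes. The list starts at a score of 0.5 and gives no counts, so the precision of a site is unknown.

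Starts were read as 0-based and positions are given 1-based. Runs joined sites at most 50 nt apart and were kept from 5 sites; run building was tested on simulated data. Genes came from GENCODE M21 (the study used a later release of the same build). A site went to the longest gene on its strand with a transcript of support level at most 3 and annotation level at most 2, or to the longest gene, and regions were read on the longest such transcript by genomic span. Motifs were read as 5 bases centred on the site. The host exon holds the middle site of a run. Shares have 95% Wilson intervals, medians order-statistic intervals, and sites of a run are not replicates. Calculations used Python 3.11.15, NumPy 2.4.6, SciPy 1.17.1 and pysam 0.24.0.

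The members and gene lists were chosen with earlier results of these data known. The rule for named genes took the 10 runs with most sites, the 5 densest, those in introns, up to 4 genes with a run per list, the extremes of exon length, score and DRACH share, and the 5 genes with most sites but no run; most but not all runs are described singly, and the counts and shares cover all of them. Alternatives were other gaps, site minima, a minimum score, collapsed sites, spliced distance and other transcripts. Leaving out a replicate was not possible with the list of sites used here, since it pools the replicates.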

Additional observations from a re-analysis of the deposited data

How the results depend on the processing

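By construction, the number of runs depended on the rule. A gap of at most 30 nt left 9 runs in 9 genes with 46 sites, among them Akap8, Crkl, Pcyt2 and Son, and 100 nt gave 242 runs in 236 genes with 1373 sites. Runs of at least 4 sites numbered 175 in 174 genes with 751 sites, and runs of at least 6 numbered 11 in 11 genes with 69 sites. A minimum score of 0.7 left 10 runs in 10 genes with 53 sites, including Incenp and Golga4. Each of these sets held only genes of the 37 or, with a wider gap or fewer sites, all 37. With sites within 5 nt collapsed 30 of the 37 genes kept a run, and with spliced distances 31.

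The share at DRACH was 78.3% with 30 nt, 90.4% with 100 nt and 96.2% at a score of at least 0.7. With collapsed sites it was 89.2% (83.4 to 93.2%), an interval that includes the 92.0% of sites outside runs. The share in the 3′ UTR was 76.1% with 30 nt, 42.8% with 100 nt, 60.9% in runs of at least 6 sites, 41.8% with collapsed sites, 61.4% with spliced distances, 62.8% without the support filter and 69.8% on a protein-coding transcript holding the run, which was chosen after seeing the data. In runs of at least 4 sites the 3′ UTR share was 46.2% and the CDS share 33.2%. The share in the CDS was 20.3% in runs of at least 6 sites and 34.2% with collapsed sites. With collapsed sites the intervals of the 3′ UTR share (34.4 to 49.6%) and the CDS share (27.2 to 41.9%) include the 39.5% and 40.1% outside runs. The cause of these shifts was not tested. The median host exon length stayed between 1343 and 2053.5 nt, within the interval of the main value. Without counts, the effect of depth on a run cannot be given.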
